A study of Homo sapiens with 13 samples.

Results

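Osteoblasts given fetal bovine serum were compared with osteoblasts kept without serum and given 1 of 3 plant compounds. The comparison used 10 of the 12 libraries analysed here, out of 13 labelled samples (DEG replicate 3 was not analysed here): the 2 positive controls, named serum here, against the 8 compound libraries, of which 3 were RES, 3 POG and 2 DEG. Libraries were chosen by treatment alone, each compound weighed equally, and the 2 negative controls (no serum, no compound) entered neither the contrast nor its estimate of spread. All libraries came from hFOB 1.19, an immortalized human fetal osteoblast line, so every group is a culture of 1 cell line. Serum cells grew in medium with 10% fetal bovine serum, and the negative control in medium without it, both with the solvent DMSO per the study's methods. Compound cells were starved of serum and then given resveratrol (RES, a stilbene), the anthocyanin peonidin-3-O-glucoside (POG) or DEG, an abbreviation its label does not spell out, each at 1 µg/mL. The study's methods give the starvation for RES and POG only, and neither they nor the labels state it for DEG. Serum and compound are therefore both switched between the groups, and their parts in a difference cannot be told apart by this contrast alone. Values for the negative control are given beside some of the results, and in a paragraph of their own, for that reason. Nothing in the labels says that libraries of a group came from separate cultures, so the spread behind the p-values may be technical. The fit took 1 spread per gene over all groups, and most replicates behind it are compound libraries.

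Serum supplies growth factors, lipoproteins, hormones and retinoids that cultured cells lack in plain medium. Cells that take up lipoprotein cholesterol keep the SREBP transcription factors in the endoplasmic reticulum, and cells without it release them to switch on sterol genes. Growth factor signals drive cyclin D and MYC and keep FOXO factors out of the nucleus, and serum also activates SRF and YAP through the actin cytoskeleton.

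Libraries held 38464619 to 51416358 counted reads, and 16987 genes with enough reads were tested. The pair of serum libraries differed more than other replicates: their squared difference was 10.99 times sampling noise, against 2.07 to 2.66 times for the 8 other pairs. The common coefficient of variation was 6.23% between the serum libraries and 2.12% among the compound libraries. The fit of the 10 libraries used a shared spread, 3.32% in common, which is below that of the serum pair. Its p-values can therefore understate the spread on the serum side. Mitochondrial genes took 3.91% and 3.64% of the reads with serum and 3.03% to 3.40% with compounds (exact permutation test, two-sided, p = 0.0444, the smallest this design allows). That test took the compound libraries as 1 group and each library as a unit, although libraries of a group may not be separate cultures. The osteoblast markers RUNX2, COL1A1, COL1A2, SPARC and ALPL were present in both arms, while SP7 and IBSP fell below the filter. Of the 6 markers tested, BGLAP included, 4 rose and none was called lower, and the lowest log2 fold change was −0.44. The means of PTPRC, CD3E, CDH5, ADIPOQ, LEP and MYOG, which mark other lineages, were at most 0.0678 CPM (reads of a gene per 1000000 reads of its library) in either arm. Lists of other lineages also held members that passed the filter. Summed levels of epithelial markers were 5.09 to 5.23 CPM with serum and 4.45 to 5.96 with compounds. Those of muscle markers were 3.57 to 4.35 and 2.89 to 4.42, of blood markers 1.88 to 1.95 and 0.66 to 1.91. Adipocyte markers summed to 0.64 to 0.87 and 0.58 to 1.26 CPM. Of 5 tested endothelial markers 3 rose with serum (KDR, TEK and TIE1) and VWF fell, and the summed level of the 7 listed was 72.0 to 77.3 CPM with serum and 46.2 to 75.1 with compounds. Their part in the results was not tested.

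Serum and compound-treated cells differed at 8228 of 16987 genes (48.4%) at a false discovery rate (FDR) under 0.05 in edgeR's quasi-likelihood test with Benjamini-Hochberg adjustment. With serum, 4253 genes (25.0%) were higher and 3975 (23.4%) lower. Scaling by plain library totals called 3155 higher and 5477 lower, so the balance of directions depends on the scaling. Few differences were large: called genes had a median absolute log2 difference of 0.28, and 77.8% of them lay under 0.5. A log2 fold change of at least 1 was reached by 593 called genes (3.49%), of which 306 (1.80% of all tested) were higher and 287 (1.69%) lower. All 8 compound libraries lay on 1 side of both serum libraries for 6784 genes (39.9%), of which 6377 were also called. Counts of called genes in the lists below are to be read against these shares.

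**Figure D1:**
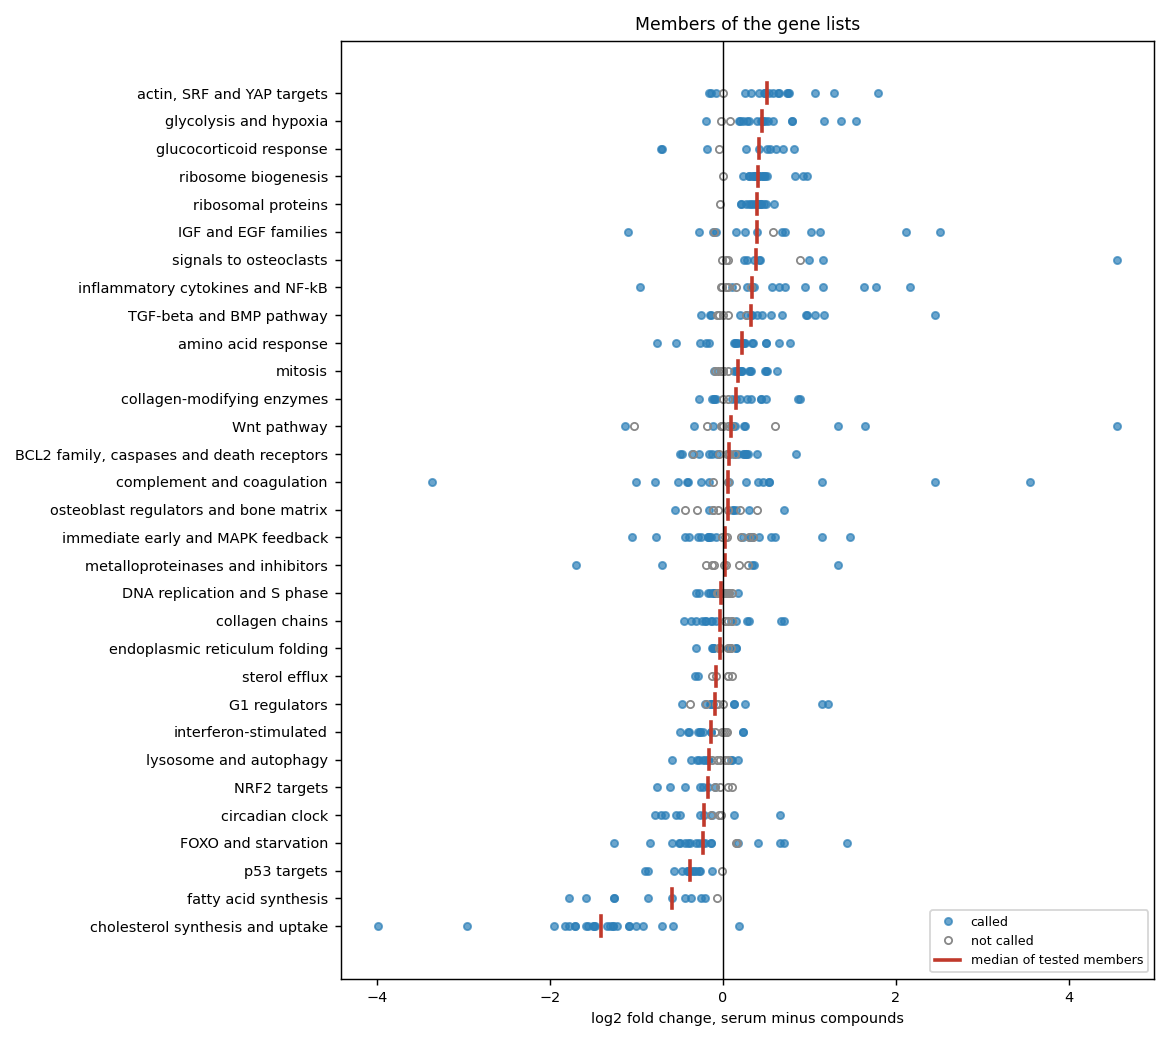
Log2 fold change of serum against compounds (x axis) for the tested members of 31 gene lists (y axis), 1 point a gene, filled where called at FDR under 0.05 and open where not, with a red bar at the list's median. Cholesterol genes lie furthest to the left, at a median of −1.40, and actin, SRF and YAP targets furthest to the right, at 0.51.

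The cholesterol pathway had the largest median difference of the lists. Of 24 tested genes for cholesterol synthesis and uptake, 23 fell with serum and 1 rose, with a median log2 fold change of −1.40 beside −0.00275 over all genes tested, and 19 of the 24 changed by at least 1. HMGCS1, which makes HMG-CoA at the entry of the pathway (ENSG00000112972.14, hg38 chr5:43287470-43313512), was at 47.7 and 48.3 CPM with serum and at 337 to 412 with compounds, median 374, and at 315 and 321 in the negative controls. The groups were far apart. Its log2 fold change was −2.96 (SE 0.0329, edgeR FDR 1.43e-29).

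The fall ran through the whole route from acetyl units to cholesterol. IDI1, an isomerase of the mevalonate steps, averaged 62.3 CPM with serum against 222 with compounds, and the sterol oxidase MSMO1 averaged 64.8 against 251. INSIG1, which holds the SREBP complex in the endoplasmic reticulum, was at 269 and 273 CPM with serum and at 672 to 924 with compounds. SREBF2, which encodes the SREBP factor of the sterol genes, fell least of these, by 0.57 on the log2 scale. The exception was PMVK, a kinase of the mevalonate steps, at 17.1 and 15.9 CPM against a compound mean of 14.5 (log2 fold change 0.18, edgeR FDR 0.0247). Its call was lost with plain library totals, in the exact test, in limma voom, without POG and without serum replicate 1 (FDRs of 0.056 to 0.26). Of 7 genes in a list named sterol efflux, none rose and 2 fell (28.6%, below the 48.4% called over all genes). These were MYLIP, lower by 0.29, and LPCAT3, lower by 0.33 on the log2 scale, and neither encodes a sterol exporter. The exporters ABCA1 (86.1 against 90.7 CPM) and ABCG1 (3.51 against 3.27 CPM) did not pass the test.

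**Figure D2:**
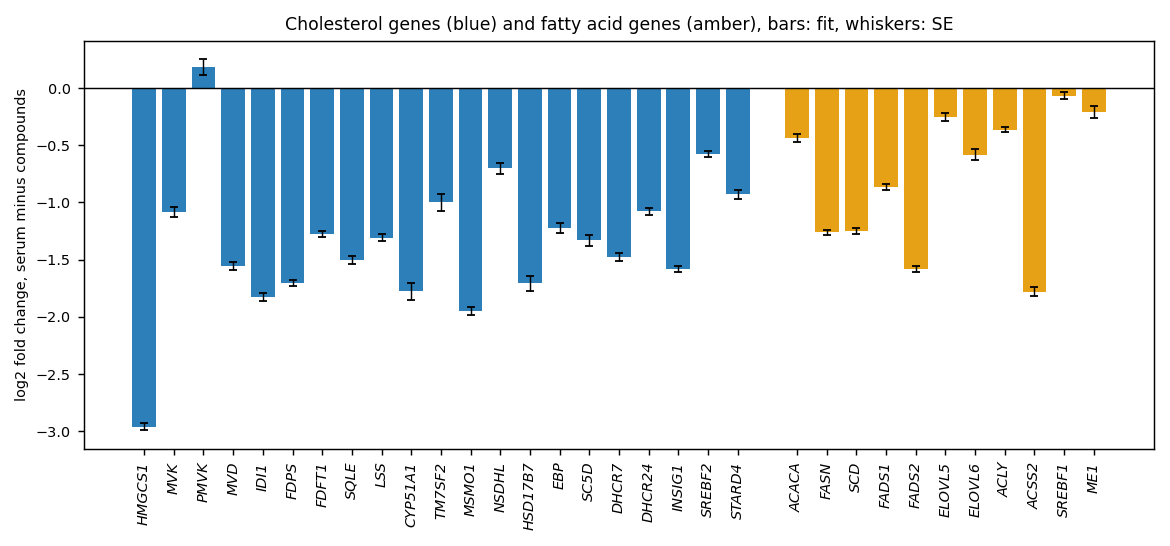
Log2 fold change of serum against compounds (y axis, bars, with whiskers of 1 SE) for 21 of the cholesterol genes in blue, ordered along the pathway and then uptake and regulation, and 11 fatty acid genes in amber. HMGCS1 reached −2.96, while PMVK alone lay above 0.

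Promoters of these genes were searched for short sequences. RefSeq (GRCh38.p14) gave a promoter for 18 of the cholesterol genes, each running from 250 bases before the start to 50 after it. CCAAT, the NF-Y box, was searched on both strands and occurred in 15 of the 18 (83.3%), against 35.7% of all 27305 promoters. The box is not particular to these genes, with 94.1% of mitotic and 92.3% of folding gene promoters holding it. A sterol regulatory element was searched on both strands as well and occurred in SREBF2 alone of the 18, and in 0.0476% of all promoters. These matches are letters in a window and not measured binding. The stretches before the start of SREBF2 (chr22:41832855-41833104, plus strand) and HMGCS1 (chr5:43313513-43313662, minus strand) are shown 5′ to 3′ with the sterol element and the CCAAT box, here read as ATTGG, in capitals. HMGCS1 has a second CCAAT box, at 100 to 96 bases before the start, which lies past the stretch shown.
SREBF2: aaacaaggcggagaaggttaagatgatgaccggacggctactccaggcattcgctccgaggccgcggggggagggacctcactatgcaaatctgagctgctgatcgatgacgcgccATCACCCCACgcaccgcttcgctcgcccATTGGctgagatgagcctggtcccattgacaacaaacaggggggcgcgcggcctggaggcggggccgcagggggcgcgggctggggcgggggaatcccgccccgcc
HMGCS1: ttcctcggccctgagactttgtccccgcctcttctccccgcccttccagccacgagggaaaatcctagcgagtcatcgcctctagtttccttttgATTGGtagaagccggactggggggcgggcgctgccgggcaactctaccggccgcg

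Fatty acid synthesis fell as well. Of 11 tested genes 10 fell with serum and none rose, with a median log2 fold change of −0.58. FASN, the fatty acid synthase, was at 621 and 635 CPM with serum and at 1470 to 1540 with compounds, median 1506, which made it the largest fall in CPM of all called genes without overlap. Its log2 fold change was −1.26 (SE 0.0232, edgeR FDR 1.09e-24) and no difference among the compounds was called (FDR 0.683). ACSS2, which turns acetate into acetyl-CoA, fell by 1.78 and the desaturase FADS2 by 1.58 on the log2 scale. FADS2 overlaps genes on both strands, and the strand setting of the counting was not stated. SREBF1 did not pass the test at 144 against 151 CPM (FDR 0.0623).

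The largest rises with serum began from levels near 0 without it. ESM1, which encodes the secreted proteoglycan endocan, was at 35.8 and 37.1 CPM with serum and at 0.259 to 1.30 with compounds, median 0.770 (log2 fold change 5.62, SE 0.105, edgeR FDR 1.55e-24). KRTAP2-3, a hair keratin-associated gene with close paralogs, had 180 reads in the serum libraries and 8 in the 8 compound libraries, 7 of them in RES replicate 2. The ratio of read rates was 81.5 with a 95% exact interval of 40.5 to 192, which covers counting error only, and its fitted fold change depends on the prior count. WNT16, a Wnt ligand of bone, was at 1.32 and 1.47 CPM against 0.0215 to 0.112. Rises among the 10 largest of genes without overlap that averaged 1 CPM or more in an arm also came from FAM163A, KRT81, ACTG2, MYEOV and the G-protein regulator RGS4, which was at 16.1 and 16.2 CPM with serum and at 1.40 to 2.80 with compounds.

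DHRS3 and RARB, which belong to retinoid metabolism and response, were both among these 10 rises. DHRS3 reduces retinaldehyde to retinol (ENSG00000162496.8, chr1:12567910-12618210) and was at 35.4 and 35.8 CPM with serum, at 0.818 to 1.84 with compounds, median 1.31, and at 1.11 and 0.605 in the negative controls. Its log2 fold change was 4.80 (SE 0.0885, edgeR FDR 1.09e-24). RARB, the retinoic acid receptor beta gene, was at 1.18 and 1.26 CPM with serum and at 0.0227 to 0.202 with compounds (log2 fold change 4.19, SE 0.387, edgeR FDR 9.32e-10). A list of 19 retinoid genes was then drawn up after these values were seen. Of its 12 tested members 8 were higher and 2 lower with serum, and the 8 include DHRS3 and RARB, which prompted the list. ALDH1A3, which makes retinoic acid, was higher at a log2 fold change of 0.78 and CRABP2, which carries it to the receptor, at 0.60. The 2 lower members were RXRA at −0.14 and RDH10 at −0.24. CYP26A1 and LRAT, which clear and store retinoids, fell below the filter. CYP26B1, of the same family as CYP26A1, was higher at 1.00 (edgeR FDR 0.0349), at 0.507 and 0.975 CPM with serum against 0.172 to 0.604, with overlap.

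The retinoic acid response element of RARB, a direct repeat spaced by 5 bases, was searched after the values were seen. The search used the letters of that gene's own half-sites, so its match was fixed by the choice and is shown as a description. The 30 bases around it at chr3:25428203-25428232 on the plus strand, from 60 to 31 bases before the RefSeq start, are shown with the element in capitals. In GENCODE v44 this start lies inside the RARB gene, which opens further upstream.
RARB: cgggtagGGTTCACCGAAAGTTCActcgca

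**Figure D3:**
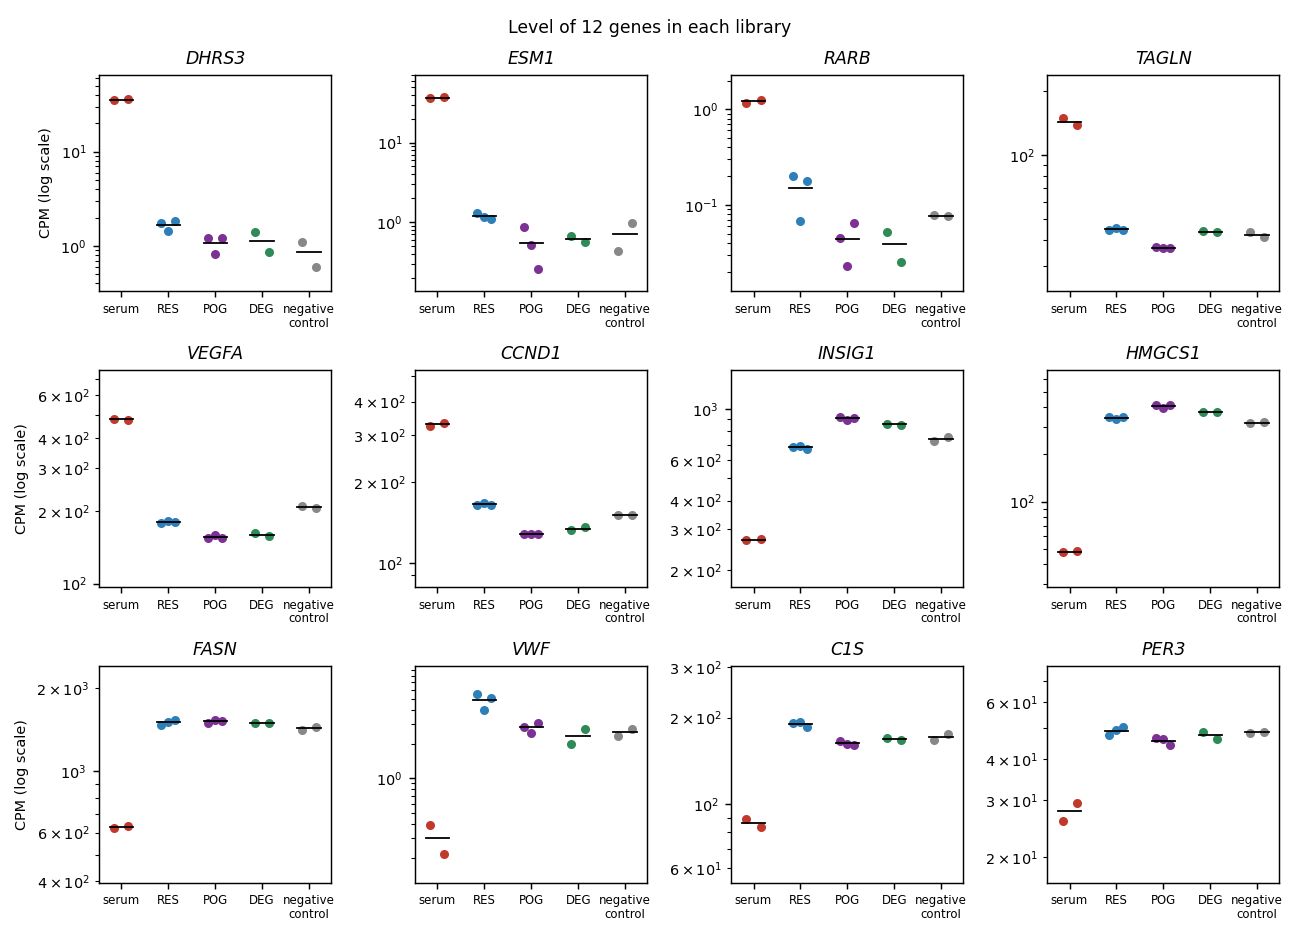
Level in CPM (y axis, log scale) of 12 genes in each of the 12 libraries, 1 point a library and a line at each group's mean, with the 2 negative controls at the right. Serum libraries lie above every other library for DHRS3, ESM1, RARB, TAGLN, VEGFA and CCND1 and below every other for the other 6 genes.

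Cell cycle genes showed no common direction. Among 16 G1 regulators 5 rose and 6 fell, or 3 and 8 with plain library totals. CCND1, the D-type cyclin that opens G1 (ENSG00000110092.3, chr11:69641156-69654474), was at 324 and 333 CPM with serum and at 128 to 167 with compounds, median 134 (log2 fold change 1.21, SE 0.0252, edgeR FDR 1.38e-23). MYC was at 96.2 and 92.3 CPM against 40.5 to 45.1 (log2 fold change 1.15). The inhibitor CDKN1A was at 499 and 472 CPM against 623 to 709 (log2 fold change −0.47). Of 22 mitotic genes 14 rose and 1 fell, at a median of 0.17 and none by 1 or more. With plain library totals 13 rose and 4 fell. CDC20, which activates the anaphase complex, was at 247 and 238 CPM against 154 to 161 (log2 fold change 0.62, SE 0.0261, edgeR FDR 7.75e-17). CCNB1, the mitotic cyclin, was at 228 and 206 CPM against 148 to 158 (log2 fold change 0.51, SE 0.0311, edgeR FDR 2.83e-13).

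Replication genes did not share that direction. Of 26 genes of DNA replication and S phase 2 rose, 9 fell and 15 did not pass the test, and the share called (42.3%) was below the 48.4% of all genes. Their median was −0.018, and with plain library totals 1 rose and 14 fell. The licensing factor CDT1 was at 171 and 160 CPM with serum and at 182 to 218 with compounds (log2 fold change −0.31), while MCM2 averaged 265 against 269 CPM and PCNA 208 against 216. The proliferation marker MKI67 was at 737 and 888 CPM with serum, a wider gap than between any of its compound replicates, and its log2 fold change of −0.11 became 0.022 without serum replicate 1.

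The cell cycle homology region TTTGAA, searched on both strands, occurred in 12 of 17 mitotic promoters (70.6%), in 1 of 22 S-phase promoters (4.55%) and in 15.4% of all promoters. CCAAT was common in both lists, in 16 of the 17 mitotic (94.1%) and 16 of the 22 S-phase promoters (72.7%), and in 12 of 13 promoters of the folding genes described further on (92.3%). The E2F site TTTCCCGC occurred in 7 of the 22 S-phase promoters (31.8%) against 1.66% of all. CDC20 (chr1:43358731-43358980, plus strand) held both kinds of letters, with TTTGAA at 65 to 60 and its reverse TTCAAA at 178 to 173 bases before the start, and CCNB1 (chr5:69166900-69167134, plus strand) held CCAAT boxes only. Both kinds are in capitals.
CDC20: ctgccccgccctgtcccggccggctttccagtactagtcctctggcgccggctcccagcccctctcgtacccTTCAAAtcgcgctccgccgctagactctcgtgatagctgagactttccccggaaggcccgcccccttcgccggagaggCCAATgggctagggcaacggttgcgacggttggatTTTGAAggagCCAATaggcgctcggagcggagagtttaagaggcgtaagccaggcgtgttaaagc
CCNB1: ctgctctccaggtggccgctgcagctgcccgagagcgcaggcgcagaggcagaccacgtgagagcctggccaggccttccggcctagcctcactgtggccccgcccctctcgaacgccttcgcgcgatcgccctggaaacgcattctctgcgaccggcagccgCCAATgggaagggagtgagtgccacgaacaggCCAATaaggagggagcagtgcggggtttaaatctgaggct

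Most genes that build ribosomes rose, none by 1 or more on the log2 scale. Of 20 ribosome biogenesis genes 19 rose and none fell, at a median of 0.41, led by BOP1 at 0.98 and RRS1 at 0.92. Of 18 ribosomal proteins 17 rose and none fell, at a median of 0.39, with RPL3 at 876 and 812 CPM with serum and 521 to 585 with compounds. Reads of ribosomal proteins made up 3.73% and 3.41% of the serum libraries and 2.82% to 3.08% of the compound libraries. Pseudogenes resemble these genes, so their counts are uncertain. Of 13 proteins encoded by mitochondrial DNA, a list drawn up after the values were seen, 12 rose and MT-ND1 fell, although MT-ND2 was at −0.0051 (FDR 0.857) without serum replicate 1. The mitochondrial share of reads given above moved with them.

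Programmes of arrest and starvation went the other way. Of 14 p53 targets 13 fell and none rose, at a median of −0.37. The antiproliferative gene BTG2 was at 15.3 and 15.4 CPM with serum and at 25.8 to 31.5 with compounds (log2 fold change −0.90, SE 0.0527, edgeR FDR 1.18e-13), and TP53INP1 fell by 0.86. Of 21 FOXO and starvation genes 14 fell and 5 rose. PIK3IP1, an inhibitor of PI3 kinase, was at 8.07 and 9.08 CPM against 16.3 to 23.7 (log2 fold change −1.26), and the receptor ERBB3 fell by 0.85. PDK4 and DEPP1 of the same list rose, by 1.44 and 0.71, PDK4 from a compound mean of 0.574 to 1.41 CPM. Of 13 clock genes 8 fell and 2 rose: PER1, PER2 and PER3 fell by 0.71, 0.67 and 0.78. Glucocorticoid response genes were mixed, with 7 of 11 higher and 3 lower, TSC22D3 among the lower at −0.71 and MT2A among the higher at 0.51.

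Actin and matrix-signalling genes rose. Of 20 actin, SRF and YAP targets 16 rose and 3 fell, at a median of 0.51. TAGLN, the actin-binding transgelin, was at 149 and 138 CPM with serum and at 36.6 to 45.4 with compounds (log2 fold change 1.79, SE 0.0327, edgeR FDR 1.00e-24). ACTB was at 5120 and 4794 CPM against 2989 to 3404, and the YAP target CCN1 averaged 909 against 436 CPM. Of 21 TGF-beta and BMP genes 13 rose and 3 fell. The signal transducer SMAD3 rose by 1.18 and ID1 and ID3, targets of BMP, by 1.07 and 0.98.

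Immediate early genes were divided, with 8 of 25 higher and 11 lower. FOSL1 was at 406 and 375 CPM with serum and at 136 to 146 with compounds (log2 fold change 1.47), while FOS fell by 0.77 and the MAPK inhibitor SPRY1 by 1.05. The median of this list was 0.03 and turned to −0.04 with plain library totals.

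Genes of glycolysis and hypoxia rose in 17 of 20 cases and fell in 1, at a median of 0.45. VEGFA, the vascular growth factor, was at 481 and 473 CPM with serum, at 154 to 181 with compounds, median 160, and at 209 and 206 in the negative controls (log2 fold change 1.54, SE 0.0237, edgeR FDR 3.03e-26). CA9 rose by 1.37 and ADM by 1.17, and LDHA, which makes lactate, averaged 926 against 530 CPM. HIF1A itself was at 691 and 718 CPM with serum and at 382 to 432 with compounds (log2 fold change 0.80). Antisense genes overlap HIF1A.

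Cytokine genes were mostly higher with serum. Of 19 tested 12 rose and 1 fell. IL1A was at 47.9 and 42.3 CPM with serum and at 8.55 to 10.7 with compounds (log2 fold change 2.17), and IL1B at 999 and 942 against 263 to 314 (1.78). The neutrophil chemokines CXCL8 and CXCL3 rose by 1.16 and 1.63. CCL5, which draws T cells, fell by 0.95, from 21.3 to 35.6 CPM with compounds to 13.1 and 13.4 with serum. Interferon-stimulated genes were lower in 9 of 16 cases and higher in 2, with IFI44L at −0.49 and IRF7 at −0.39. All 16 also differed among the compounds at FDR under 0.05, against 25.5% of all genes. Their serum differences are therefore averages over unlike compounds. A list of 12 MHC class I genes drawn up after the values were seen held 11 that fell and none that rose, with HLA-B at 2069 and 1876 CPM with serum and at 2632 to 2954 with compounds. HLA genes are near-identical in part and their counts are uncertain. Of 19 complement and coagulation genes 9 rose and 8 fell. The complement proteases C1S and C1R fell by 1.01 and 0.79 and C3 by 0.42, whereas in the same list PLAT, the tissue plasminogen activator, rose by 1.14.

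Genes of bone were described in lists of osteoblast genes and of signals to osteoclasts. RUNX2, the master regulator of osteoblasts, was at 47.3 and 51.8 CPM with serum and at 44.3 to 51.4 with compounds, with overlap (log2 fold change 0.06, edgeR FDR 0.294), although it was called without serum replicate 1 (0.12, FDR 0.0437). DLX5 stood near 1 CPM on both sides (FDR 0.736). Of 15 osteoblast genes tested 5 rose and 2 fell. ALPL, the alkaline phosphatase of mineralizing cells, was at 6.61 and 6.68 CPM against 3.23 to 5.24 (log2 fold change 0.71, SE 0.102, edgeR FDR 1.85e-06), COL1A2 rose by 0.31 and BMP4 fell by 0.55. The median of this list, 0.06, was −0.01 with plain library totals.

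Of 12 signals to osteoclasts 8 rose and none fell. TNFRSF11B, the RANKL decoy osteoprotegerin (ENSG00000164761.8, chr8:118923557-118951885), was at 56.7 and 59.8 CPM with serum, at 25.4 to 35.4 with compounds, median 27.9, and at 38.3 and 39.9 in the negative controls (log2 fold change 1.00, SE 0.0404, edgeR FDR 4.09e-17). TNFSF11, which encodes RANKL itself, was low everywhere at 0.365 and 0.357 CPM with serum and 0.0431 to 0.583 with compounds, and did not pass the test (FDR 0.0844). The POG libraries held 3, 2 and 2 reads of it. The groups overlapped for RANKL and did not for osteoprotegerin.

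Matrix genes were mixed. Of 18 collagen chains 6 rose and 9 fell, with COL6A1 at −0.30 and COL12A1 at 0.67. Collagen-modifying enzymes rose in 10 of 17 cases and fell in 5, with the crosslinking oxidase LOXL2 at 740 and 717 CPM with serum and 374 to 415 with compounds (log2 fold change 0.90) and the procollagen protease ADAMTS2 at 0.87. Of 12 metalloproteinases and inhibitors 3 rose and 2 fell, with TIMP3 at 1.33 and MMP11 at −0.70, and the median of this list, 0.03, was −0.04 with plain totals. Among growth factor genes the binding proteins IGFBP5 and IGFBP3 rose by 2.52 and 2.12, IGFBP5 from 1.00 to 2.04 CPM with compounds to 9.06 and 9.04, while the EGF-like ligand AREG fell by 1.10. In all 9 of 15 genes of the IGF and EGF families rose and 4 fell. Of 19 Wnt genes 8 rose and 3 fell, or 5 and 4 with plain library totals, and the median of 0.09 became 0.021. Inhibitors were among the higher: DKK1 at 10.1 and 9.56 CPM with serum against 1.89 to 5.62 (log2 fold change 1.64) and SFRP1 at 1.33.

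Survival genes moved in both directions, 9 of 22 higher and 7 lower. The protective BCL2A1 was at 9.45 and 8.25 CPM with serum against 4.24 to 5.79 (log2 fold change 0.85), MCL1 rose by 0.30 and BCL2L1 by 0.27. BCL2, also protective, was at 3.65 and 3.57 CPM against 4.50 to 5.62 (log2 fold change −0.47, SE 0.113, edgeR FDR 0.00116). Of the genes that favour death, BCL2L11, which encodes BIM, was at 22.5 and 20.6 CPM against 28.5 to 31.7 (log2 fold change −0.50), while BAX and BID rose by 0.18 and 0.39. CASP8 averaged 18.2 against 17.4 CPM and did not pass the test.

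Amino acid response genes rose in 14 of 19 cases and fell in 5, with STC2 at 0.78 and the cystine carrier SLC7A11 at −0.76. NRF2 targets fell in 7 of 11 cases and none rose, lysosome and autophagy genes fell in 9 of 17 and rose in 3, and genes of folding in the endoplasmic reticulum fell in 5 of 14 and rose in 4. With plain library totals the folding genes fell in 8 and rose in 1, and the lysosome and autophagy genes fell in 12 and rose in 1. By the same limits, the largest falls outside sterol genes came from low levels: SLCO4C1 (0.0203 and 0.0951 CPM with serum, 0.734 to 2.80 with compounds), the photoreceptor cadherin gene CDHR1, VWF (0.385 and 0.214 against 1.99 to 5.54), the fatty acid carrier FABP3, the phospholipase PLA2G3, KRT4, IL21R and CHI3L1.

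Which compound stood in for serum-free cells changed the answer for some genes. Against RES 7509 genes (44.2%) were called, against POG 7860 (46.3%) and against DEG 7037 (41.4%). Of these, 533 (3.14% of all tested), 665 (3.91%) and 594 (3.50%) reached a log2 fold change of at least 1. These contrasts share the serum libraries. The 3 compounds differed from each other at 4328 genes (25.5%), and at 2856 of the 8228 genes called for serum (34.7%), by an edgeR F test that the serum libraries do not enter. IL6 shows the range: serum libraries stood at 767 and 717 CPM, RES libraries at 1014 to 1023, POG libraries at 584 to 606, DEG libraries at 621 and 628 and the negative controls at 972 and 999. Serum therefore lay below RES and above POG and DEG, with log2 differences of −0.46, 0.32 and 0.25 and an average of 0.04 that was not called (FDR 0.241). Without serum replicate 2 that average was 0.08. It was 0.28 without RES (FDR 1.3e-07), −0.11 without POG (FDR 0.00411) and −0.071 without DEG (FDR 0.0337). The difference among compounds had an FDR of 6.71e-18 in edgeR's quasi-likelihood test.

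The same placing between compounds held for PODXL, an adhesion sialomucin, and for the interferon genes IFIT1 and IFIT3. Mean levels of PODXL were 330 CPM in serum, 354 in RES, 205 in POG and 224 in DEG libraries, and IFIT3 averaged 201 CPM against 236, 147 and 144. EGR1 went the other way, with means of 87.2 CPM in serum, 82.0 in RES, 157 in POG and 128 in DEG libraries. In the exact test that pools the compounds as 1 group, PODXL, IFIT1, IFIT3, EGR1 and RSAD2 were not called against serum, at FDRs of 0.123 to 0.643. Other genes kept 1 direction and changed in size. TGM2, the tissue transglutaminase, was at 177 and 170 CPM with serum and averaged 107, 57.1 and 63.4 CPM in RES, POG and DEG, so that log2 fold changes were 0.70, 1.60 and 1.45. RSAD2, an antiviral gene, was lower than RES by 1.37 but its difference from POG was −0.05 (SE 0.0613). Among sterol genes, log2 fold changes of INSIG1 were −1.33, −1.75 and −1.66 against RES, POG and DEG.

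**Figure D4:**
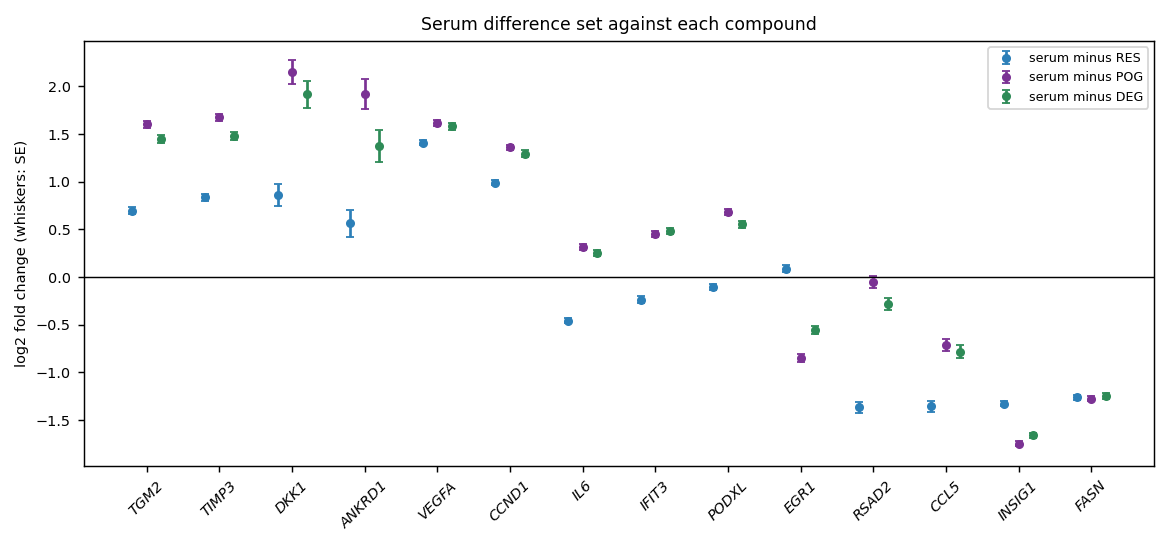
Log2 fold change of serum (y axis, points with whiskers of 1 SE) against RES, POG and DEG separately for 14 genes. IL6, IFIT3 and PODXL lie below 0 against RES and above 0 against POG and DEG, EGR1 the reverse, and FASN lies at −1.26, −1.28 and −1.25.

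The negative controls show where the compounds themselves had moved. They differed from the compounds at 1327 of 17092 genes (7.76%), and serum differed from them at 7014 (41.0%). These contrasts share libraries with the one above. Of the 8228 genes called for serum, 989 (12.0%) were also called between negative control and compounds. In 606 of these the negative controls lay on the serum side of the compounds, and in 383 on the far side. COL3A1 is of the second kind, at 898 and 917 CPM with serum, 1147 to 1193 with compounds and 1697 and 1758 in the negative controls. COL15A1 is of the first, at 3.41 and 3.66 CPM with serum, a compound mean of 2.24 and 3.66 and 3.35 in the negative controls. TNFRSF11B, COL12A1 and TIMP3 also had negative controls above the compounds, with log2 differences of 0.42, 0.48 and 0.45. Of the lipid genes, HMGCS1, ACSS2, INSIG1 and FASN had negative controls called below the compounds, at −0.23, −0.28, −0.13 and −0.07. They therefore lay on the serum side. Serum against negative control was −2.73, −1.50, −1.45 and −1.19 for these genes. In FADS2 the negative controls were not called different from the compounds (edgeR FDR 0.0851). For CDC20, BTG2 and PER3 no difference between negative control and compounds was called.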

How the data were processed

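Raw read counts of 43836 genes in 12 libraries were deposited by the authors as 1 table. Per their methods and the labels, polyA RNA was sequenced as pairs after strand selection, aligned to hg38 with STAR and counted on Ensembl genes with featureCounts, and versions and strand setting are not given in the sources used here. DEG replicate 3 was not analysed here. 43214 genes matched a symbol. Counts of the 10 libraries were filtered (filterByExpr, 16987 genes with 99.97% of reads), scaled by TMM and fitted with 1 coefficient per group in edgeR 4.0.16 (R 4.3.3), testing serum minus the mean of RES, POG and DEG by quasi-likelihood with Benjamini-Hochberg adjustment, called at FDR under 0.05. CPM are TMM-scaled, and those of the negative controls were set to the same scale. Negative control contrasts came from a fit of all 12 libraries. The authors' exact test compares 2 groups only and was an alternative. On simulated counts, 64% of genes changed by 0.5 and 80% of those changed by 1 on the log2 scale were recovered, with 9 unchanged genes called. The simulation changed 200 genes and gave serum and compound libraries the same spread per gene, with no difference among compounds. It therefore gives no error rate for the wider spread of the real serum pair.

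Members, gene lists and tests were chosen with earlier results of these data known. Named genes were the 10 largest log2 rises and falls and the 5 largest in CPM without overlap (mean of at least 1 CPM in either arm), the 2 largest called each way per list with the same minimum, 13 genes the study discusses, and the 5 with the smallest p among compounds. Members named beyond these, and the retinoid, MHC class I and mitochondrial lists, were chosen after their values were seen. Some genes chosen by this rule are not reported here by name and stay in the counts. Sequences are from RefSeq (GRCh38.p14), which gave 27305 promoters. Coordinates are from GENCODE v44 on hg38. Intervals cover counting error only. Alternatives were other scalings, filters and weights, DESeq2 1.42.0, the exact test, limma 3.58.1 voom (added after seeing the data) and leaving out each library or compound.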

Additional observations from a re-analysis of the deposited data

Results flagged for a closer look

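For 31 named genes the size of the serum difference depended on the compound it was set against: the 3 compounds differed in edgeR's quasi-likelihood F test (FDR under 0.05, adjusted over all genes tested) and their serum differences spread by at least 0.5 on the log2 scale. A further 53 named genes differed among the compounds with a smaller spread. No group held enough libraries to look for single libraries far from the rest. FDRs below are those of the difference among compounds, with 2 to 3 libraries in each group.

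Serum stood between the compounds for IL6 (FDR 6.71e-18), PODXL (2.23e-16), IFIT3 (4.18e-16), IFIT1 (1.07e-15), IL18 (0.00295), TNFSF11 (0.000658) and, in the opposite order, EGR1 (4.47e-16). The values of TNFSF11 rest on 2 to 3 reads in each POG library.

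Among genes whose fitted difference was positive against every compound, the gap to RES was the smallest for TGM2 (FDR 2.23e-16), TIMP3 (2.93e-15), DKK1 (1.12e-08), ANKRD1 (4.39e-07), RGS4 (0.00013), FAM163A (0.00035), COL15A1 (0.000902), ESM1 (0.00175), ALPL (0.00335), DHRS3 (0.015), MYEOV (0.0225) and IGFBP5 (0.035). It was the smallest against DEG for CA9 (0.00023) and PDK4 (0.00611).

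Among genes whose fitted difference was negative against every compound, the gap to RES was the largest for RSAD2 (FDR 2.23e-16), whose difference from POG was within its SE, IFI44L (1.41e-10), CCL5 (3.02e-10), SLCO4C1 (2.57e-05), VWF (3.56e-05), FABP3 (0.00104) and CHI3L1 (0.0231). It was the smallest for SLC7A11 (6.59e-07), OSGIN1 (0.000244) and KRT4 (0.0132).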

How the results depend on the processing

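The count of genes called for serum against compounds, 8228, ran from 6255 to 8632 over alternatives of scaling, filter, weights, tool and compounds, and from 6786 to 8163 when 1 library was left out. Leaving out 1 library gave 6275 to 7750 against RES, 6777 to 7990 against POG, 5496 to 7497 against DEG and 3159 to 6010 among compounds. Counts of called genes with an absolute log2 fold change of at least 1 were 593 for serum against compounds, 533 against RES, 665 against POG, 594 against DEG, 18 for negative control against compounds and 605 for serum against negative control. An FDR of 0.01 left 2702 genes among compounds and 712 for negative control against compounds. With plain library totals the median of all genes moved to −0.072, and 36.6% of called genes were higher with serum in place of 51.7%, with 35.0% against RES in place of 51.7%, 36.6% against POG in place of 50.8% and 37.8% against DEG in place of 52.4%. Higher calls were then 48.1% in place of 69.5% for negative control against compounds and 41.0% in place of 50.7% for serum against negative control. The medians of the BCL2 family list (0.07) and the complement and coagulation list (0.06) became 0.0042 and −0.0065.

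RRM2 turned to −0.0059 without compound RES. IL6 was at 0.28 without RES and turned to −0.11 without POG and −0.071 without DEG. Leaving out 1 library moved MKI67 between −0.25 and 0.022 and MT-ND2 between −0.0051 and 0.15, and both turned without serum replicate 1. The cause was not tested. Of the 8228 calls, 75.1% were kept in the same direction without serum replicate 1, 77.5% in the exact test and 76.0% in limma voom. Calls of NR1D1, PMVK, ACTA2, CYP26B1, MKI67, MT-ND2 and RRM2 were lost under 4 or more alternatives. No paired analysis was possible because the labels carry no replicate number. With 2 serum libraries that differed more than other pairs, small differences rest on few samples.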

Other observations

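Genes at high levels outside the sections above also differed between serum and compounds. HMGA1, which encodes a chromatin-binding protein, was at 2416 and 2238 CPM with serum and at 1076 to 1196 with compounds (log2 fold change 1.04, SE 0.0221, edgeR FDR 2.26e-23). MT-CO1, a subunit of the respiratory chain oxidase, was at 10180 and 9391 CPM against 7119 to 7940. IL18, a cytokine gene the study discusses, was at 1.91 and 2.38 CPM against 1.27 to 2.98, with overlap, and did not pass the test (edgeR FDR 0.128).

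Of 4 tested chondrocyte markers, SOX9 was at 6.21 and 6.04 CPM with serum against 1.20 to 3.19, and COL2A1 at 0.183 and 0.333 CPM against 0.763 to 1.29, so that the pair moved in opposite directions (log2 fold changes 1.62 and −1.96). The summed level of the 5 listed chondrocyte markers was 29.9 to 32.3 CPM with serum and 26.5 to 33.7 with compounds.

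The pair of serum libraries, which varied more than other replicates, differed by at least 0.5 on the log2 scale (0.5 CPM added) at 17 of 9972 genes with 10 CPM or more in either, led by RTF1 at −0.93 and VEPH1 at 0.78 for replicate 2 over replicate 1.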
